A study of Homo sapiens with 18 samples.

Results

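The response of the subclone B11 to 10 ug/ml doxycycline was measured after the response of its parent line THP1 to the same dose had been subtracted. For each gene this drug-corrected response is the change from 0 to 10 ug/ml in B11 minus the change from 0 to 10 ug/ml in THP1, on the scale of log2(FPKM + 1), where FPKM is the count of sequenced fragments divided by transcript length and library depth. It rests on 12 of the 18 RNA sequencing libraries of the series, 3 in each of 4 groups, and on 17555 of the 60658 genes in the deposited table, those at 1 FPKM or more in at least 3 of the 18 libraries. THP1 is a human line from an acute monocytic leukaemia, listed in the labels as heterozygous for NRAS G12D. B11, listed as heterozygous for NRAS G12V, is a subclone of THP1 cells that had received a lentiviral, doxycycline-inducible NRAS with the G12V mutation, made resistant to CRISPR, together with GFP, and then Cas9, a puromycin resistance gene and a pair of guide RNAs placed on either side of the NRAS start codon. The 4 groups were THP1 without doxycycline, THP1 at 10 ug/ml, B11 without doxycycline and B11 at 10 ug/ml, and RNA was taken from all of them on day 5. Several features limit the groups as a model. B11 is 1 clone, its cells had been given doxycycline and selected as GFP positive before editing, and the labels describe no vector in the THP1 plates, so the part of the vectors, the editing and the choice of clone in how B11 responded cannot be told apart from that of induction. The plates of a line were split from a common culture, so the spread behind each p-value is that between plates and may be technical.

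NRAS encodes a small GTPase that is active when bound to GTP, and glycine 12 mutations keep it in that state. Active RAS recruits RAF kinases, which pass the signal through MEK to ERK, and ERK in turn switches on early response genes such as EGR1 and FOS, G1 cyclins, and the phosphatases and Sprouty proteins that damp the cascade. In myeloid leukaemia RAS mutations are common and are linked to proliferation and to a block or skew of monocytic maturation. Doxycycline, the inducer, is an antibiotic that also acts on the ribosomes of mitochondria, which is why the parent at the same dose is a needed comparator.

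Promoters of 6 genes are shown as single examples, and each holds a short motif linked to a group described later. They were read from RefSeq on GRCh38.p14, from 250 bases before to 50 bases after the transcription start, and are written 5′ to 3′ on the strand of the gene, with the motif in capitals; motifs were searched on both strands. In EGR1 the capitals mark CArG boxes, the site of serum response factor, and in CCNB2 they mark the CCAAT box (CCAAT on either strand) and the cell cycle element TTTGAA. Capitals mark CCAAT boxes in HSPA5, the E-box CACGTG in SRM, the NF-kB site in NFKBIA (GGGA, any base, then TTTCC, here on the reverse strand), and the ATF4 element TGATGNAA in ASNS.
EGR1, chr5:138465229-138465528, plus strand: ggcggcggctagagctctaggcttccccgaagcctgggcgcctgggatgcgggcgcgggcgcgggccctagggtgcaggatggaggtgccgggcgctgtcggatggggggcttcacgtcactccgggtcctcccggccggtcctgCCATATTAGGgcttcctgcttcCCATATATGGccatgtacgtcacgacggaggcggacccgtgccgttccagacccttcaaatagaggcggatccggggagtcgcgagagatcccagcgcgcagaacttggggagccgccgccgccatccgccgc
CCNB2, chr15:59104896-59105195, plus strand: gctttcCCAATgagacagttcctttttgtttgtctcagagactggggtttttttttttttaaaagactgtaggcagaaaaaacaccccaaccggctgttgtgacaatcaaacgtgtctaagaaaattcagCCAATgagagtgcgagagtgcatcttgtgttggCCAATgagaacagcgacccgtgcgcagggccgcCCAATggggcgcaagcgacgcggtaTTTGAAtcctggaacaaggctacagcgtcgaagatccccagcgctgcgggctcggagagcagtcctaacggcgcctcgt
HSPA5, chr9:125241294-125241593, minus strand: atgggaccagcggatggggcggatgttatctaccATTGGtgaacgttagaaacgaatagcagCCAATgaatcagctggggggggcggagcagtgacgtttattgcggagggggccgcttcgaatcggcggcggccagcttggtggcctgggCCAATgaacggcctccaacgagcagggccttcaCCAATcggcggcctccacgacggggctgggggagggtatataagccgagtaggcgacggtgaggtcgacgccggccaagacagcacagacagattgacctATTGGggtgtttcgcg
SRM, chr1:11059969-11060268, minus strand: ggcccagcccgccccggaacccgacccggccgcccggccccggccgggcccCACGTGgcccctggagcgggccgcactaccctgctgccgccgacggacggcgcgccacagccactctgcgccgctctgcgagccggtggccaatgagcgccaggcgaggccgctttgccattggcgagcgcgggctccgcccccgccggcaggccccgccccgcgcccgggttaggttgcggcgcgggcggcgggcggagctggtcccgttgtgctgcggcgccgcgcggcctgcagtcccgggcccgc
NFKBIA, chr14:35404700-35404999, minus strand: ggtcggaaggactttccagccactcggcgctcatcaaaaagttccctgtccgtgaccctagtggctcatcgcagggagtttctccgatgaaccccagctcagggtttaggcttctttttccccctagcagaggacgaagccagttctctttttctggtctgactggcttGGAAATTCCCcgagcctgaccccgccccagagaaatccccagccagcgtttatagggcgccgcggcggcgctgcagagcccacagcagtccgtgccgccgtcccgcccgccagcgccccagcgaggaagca
ASNS, chr7:97872359-97872658, minus strand: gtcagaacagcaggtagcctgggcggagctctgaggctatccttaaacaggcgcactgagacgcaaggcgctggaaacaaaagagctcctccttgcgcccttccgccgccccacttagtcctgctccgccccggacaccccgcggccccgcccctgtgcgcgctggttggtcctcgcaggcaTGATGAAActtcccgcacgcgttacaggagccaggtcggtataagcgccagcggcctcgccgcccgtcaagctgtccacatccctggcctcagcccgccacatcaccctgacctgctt

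The EGR1 CArG boxes lie at -105 to -96 and -83 to -74 from the start, and 1.29% of all 27305 promoters of the same length hold a CArG box. CCNB2 has 4 CCAAT boxes and a cell cycle element at -29 to -24, and HSPA5 has 5 CCAAT boxes, against 35.7% of all promoters with at least 1 CCAAT box and 15.4% with the cell cycle element. The E-box of SRM is held by 7.43%, the NF-kB site by 0.579% and the ATF4 element by 3.67% of all promoters. Among list members with a promoter in the table, a CCAAT box was found in 77.8% of 27 genes of the unfolded protein response and heat shock, an E-box in 40% of 25 MYC target and ribosome biogenesis genes, and an NF-kB site in 30% of 20 inflammatory genes. A CArG box was found in 0% of 12 immediate early genes. The CCAAT box was as frequent, 77.8%, in 9 genes of antigen presentation by class II. Such a match describes the letters in this window and was not tested against expression. Fewer than 80% of the kept cell cycle, ATF4 and MAPK output genes had a promoter in the table, so the same count is void for those lists.

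Depth was estimated at 10.7 to 15.4 M fragments per library for the 12 libraries. Across genes, libraries of the same group had a Pearson r between 0.938 and 0.955. SPI1, a myeloid transcription factor, and PTPRC, the leukocyte antigen CD45, were above 100 FPKM in all 12 libraries, and CD33, LYZ, CD4 and FCER1G above 60 FPKM, whereas the granule enzyme MPO was low, at 1.51 to 22.8 FPKM, and the monocytic integrin ITGAM ran from 2.17 to 4.68 FPKM in untreated B11 and from 9.65 to 21.4 FPKM in the other 3 groups. Library B of untreated B11 stood apart in amino acid stress genes: 9 of 37 kept genes of the ATF4 list were at least 2 times as high there as in both other untreated B11 libraries on the FPKM + 1 scale, against 1.9% of all kept genes, and results that rest on it are given below with and without it.

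NRAS, which lies on the minus strand of chromosome 1 from 114704469 to 114716894 in GRCh38, had values of 23.7, 23.0 and 23.2 FPKM in libraries A, B and C of untreated THP1 and of 23.7, 24.5 and 24.6 FPKM in THP1 at 10 ug/ml. In B11 NRAS was at 19.8, 21.98 and 21.1 FPKM without doxycycline and at 27.99, 27.7 and 28.2 FPKM at 10 ug/ml. The treated B11 libraries lay above all other 9, and the untreated B11 libraries below all 6 of THP1. Its corrected response was 0.35 (SE 0.10, adjusted p = 0.0159), a modest rise made of 0.40 in B11 and 0.06 in THP1. The table has 1 value for NRAS, so transcripts of the introduced and of the edited gene cannot be told apart. Here and below, responses are differences of log2(FPKM + 1) from a limma fit of all 18 libraries, p-values are adjusted by Benjamini-Hochberg over all 17555 genes, and a gene is called at an adjusted p under 0.05. Libraries are always given in the order A, B, C. Genes named as exceptions, as uncalled or for 1 library fall outside the naming rule and were chosen after their values were seen.

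The corrected response was called in 5230 genes, which is 29.8% of those tested, with 2812 higher (16%) and 2418 lower (13.8%). Of these, 1365 genes (7.78% of those tested) were higher and 1254 (7.14%) lower by at least 1 on the log2 scale. On the B11 side 7520 genes (42.8%) were called, 3784 up (21.6%) and 3736 down (21.3%). The THP1 side had 179 called genes (1.02%), of which 17 rose (0.0968%) and 162 fell (0.923%). Leaving out a single THP1 library brought the 179 to between 69 and 119, and a fit of only the 12 libraries to 54. The median absolute change was 0.46 in B11 and 0.16 in THP1, with median SEs of 0.20 in each line. The corrected response had a median absolute size of 0.49 and a median SE of 0.28. Yet 124 of the 179 genes called in THP1 (69.3%, against 42.8% of all genes) were also among those called in B11 (1.65% of the B11 genes). The 2 sides share no library, but both use 1 spread per gene estimated from all 18 libraries, so their calls are not independent. In 62 of the 124 the gene rose in B11 and fell in THP1, in 50 it fell in both lines, in 9 it rose in both and in 3 it fell in B11 and rose in THP1.

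**Figure D1:**
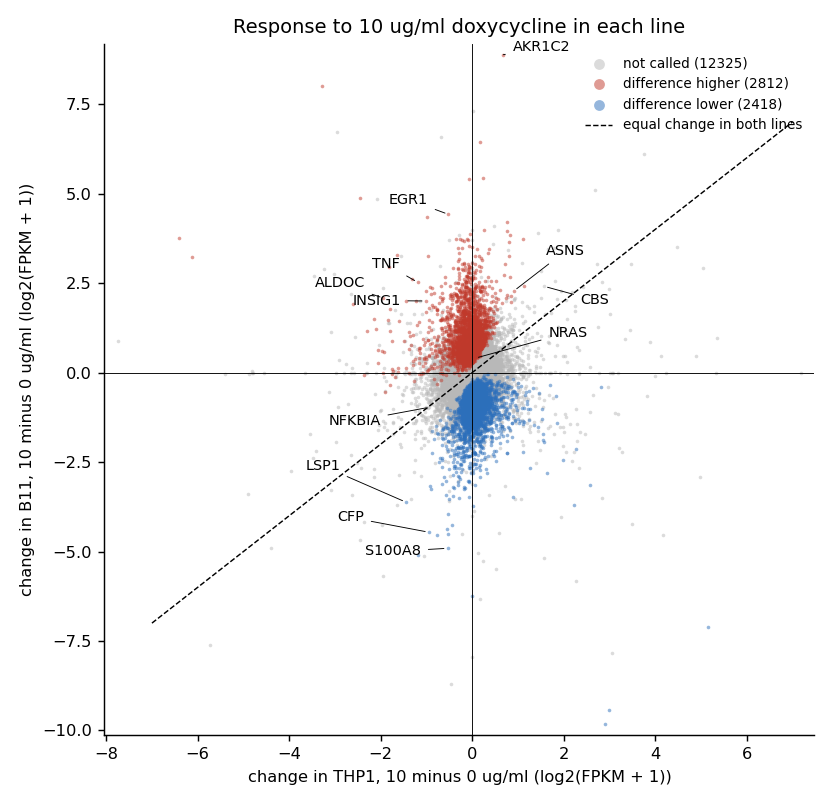
Each point is 1 of 17555 genes, with the change from 0 to 10 ug/ml doxycycline in THP1 on the x axis and in B11 on the y axis, both in log2(FPKM + 1); red and blue mark the 2812 genes called higher and the 2418 called lower in the corrected response, and genes on the dashed line changed equally in both lines. The cloud is tall and narrow, NFKBIA lies near the dashed line, and INSIG1, TNF and ALDOC lie to the left of zero and above it.

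Genes downstream of ERK rose with induction in B11, and few of them were called in the drug-treated parent. Of 30 listed genes of MAPK output and feedback, 20 were kept. In the corrected response 18 of these were called higher and 0 lower (90% called, against 29.8% of all genes). The median was 1.92 against -0.03 over all genes. In B11 19 of the 20 rose and 0 fell, with a median of 1.43. In THP1 0 rose and 2 fell, KLF2 at -1.37 and EGR1 at -0.52, with a median of -0.05. Without doxycycline 15 of the 20 were lower (23.6% of all genes) and 2 higher (23.5% of all genes) in B11 than in THP1. The median gap was -1.16. At 10 ug/ml 11 were higher (16.4% of all genes) and 2 lower (16% of all genes), with a median gap of 0.79. EGR1, an early growth response transcription factor, was at 5.19, 4.92 and 5.15 FPKM in untreated THP1, 2.61, 4.05 and 3.21 in treated THP1, 1.30, 1.31 and 1.398 in untreated B11 and 52.7, 46.2 and 48.1 in treated B11. The 4 groups of EGR1 values did not overlap, and the treated B11 libraries stood far above the rest. Its corrected response of 4.94 (SE 0.16, adjusted p = 5.21e-11) joined a rise of 4.42 in B11 to a THP1 change of -0.52 (adjusted p = 0.0494).

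DUSP6, the phosphatase that inactivates ERK, had 44.5, 38.2 and 43.7 FPKM in untreated THP1, 43.5, 32.0 and 43.3 in treated THP1, 1.395, 1.98 and 1.64 in untreated B11 and 24.5, 18.3 and 20.1 in treated B11. The THP1 groups overlapped, and treated B11 lay between them and untreated B11. The corrected response of DUSP6 was 3.13 (SE 0.19, adjusted p = 1.92e-08). CCND1, cyclin D1, stood at 0.0179, 0.149 and 0.67 FPKM in untreated B11 and 21.2, 15.2 and 16.3 in treated B11, with THP1 between 6.13 and 8.90 FPKM at both doses. Its corrected response was 3.92 (SE 0.37, adjusted p = 1.46e-06), and treated B11 was thus above the parent for CCND1 where it was below it for DUSP6. MAFF, a small MAF transcription factor, had a corrected response of 2.67 (SE 0.24). ELK3 and SERPINB2 were the kept members that were not called, at -0.20 and 0.18. The count of 18 was 9 where only genes with a mean of at least 5 FPKM were tested, a filter that keeps fewer members. Among the 4 groups, some kept members reached a mean of 1 FPKM only in treated B11, such as EPHA2 (4.37 FPKM) and ETV1 (2.15 FPKM). For these the filter at 1 FPKM itself favours a rise, so their calls add little support.

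The kinases and exchange factors that carry the RAS signal moved much less. Of 25 kept genes of the 26 listed from RAS to ERK, 5 were higher and 3 lower, 32% against 29.8% of all genes, with a median of 0.22. NRAS itself, the induced gene, is among the 5. PTPN11, the phosphatase SHP2 that acts upstream of RAS, had a corrected response of 0.72 (SE 0.12, adjusted p = 0.000233), and MAP2K2, which encodes MEK2, of 0.49 (SE 0.13). The RAS exchange factors SOS1 and SOS2 were lower, at -1.04 (SE 0.26) and -0.65 (SE 0.18). SOS1 had 11.3, 9.70 and 11.2 FPKM in untreated and 15.1, 16.4 and 14.4 in treated THP1, against 11.9, 9.74 and 11.3 in untreated and 8.90, 5.23 and 7.63 in treated B11. Treated B11 was lowest and treated THP1 highest, without overlap; the B11 change of SOS1 was -0.56 (adjusted p = 0.0222) and the THP1 change, 0.48, was not called (adjusted p = 0.344).

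Early response genes outside the MAPK list split. Of 14 kept immediate early genes 6 were higher and 3 lower (64.29% called, against 29.8% of all genes), with a median of 0.48. On the drug side 7 of the 14 fell in THP1 with none rising. FOS, the partner of JUN in AP-1, went from 18.2, 13.7 and 18.9 to 77.2, 85.7 and 60.7 FPKM in B11, while THP1 had 61.5, 68.8 and 70.6 FPKM without and 56.1, 43.4 and 43.0 with doxycycline. Its corrected response was 2.56 (SE 0.23, adjusted p = 9.04e-07), and that of the orphan nuclear receptor NR4A1 was 2.42 (SE 0.31). For the AP-1 members JUNB and JUND the corrected response exceeded the B11 change because THP1 fell: JUNB had 0.87 (0.29 in B11, -0.58 in THP1) and JUND 1.33 (0.65 in B11, -0.68 in THP1). The 3 that were lower were the Krueppel-like factors KLF4 and KLF10 and the antiproliferative BTG1.

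**Figure D2:**
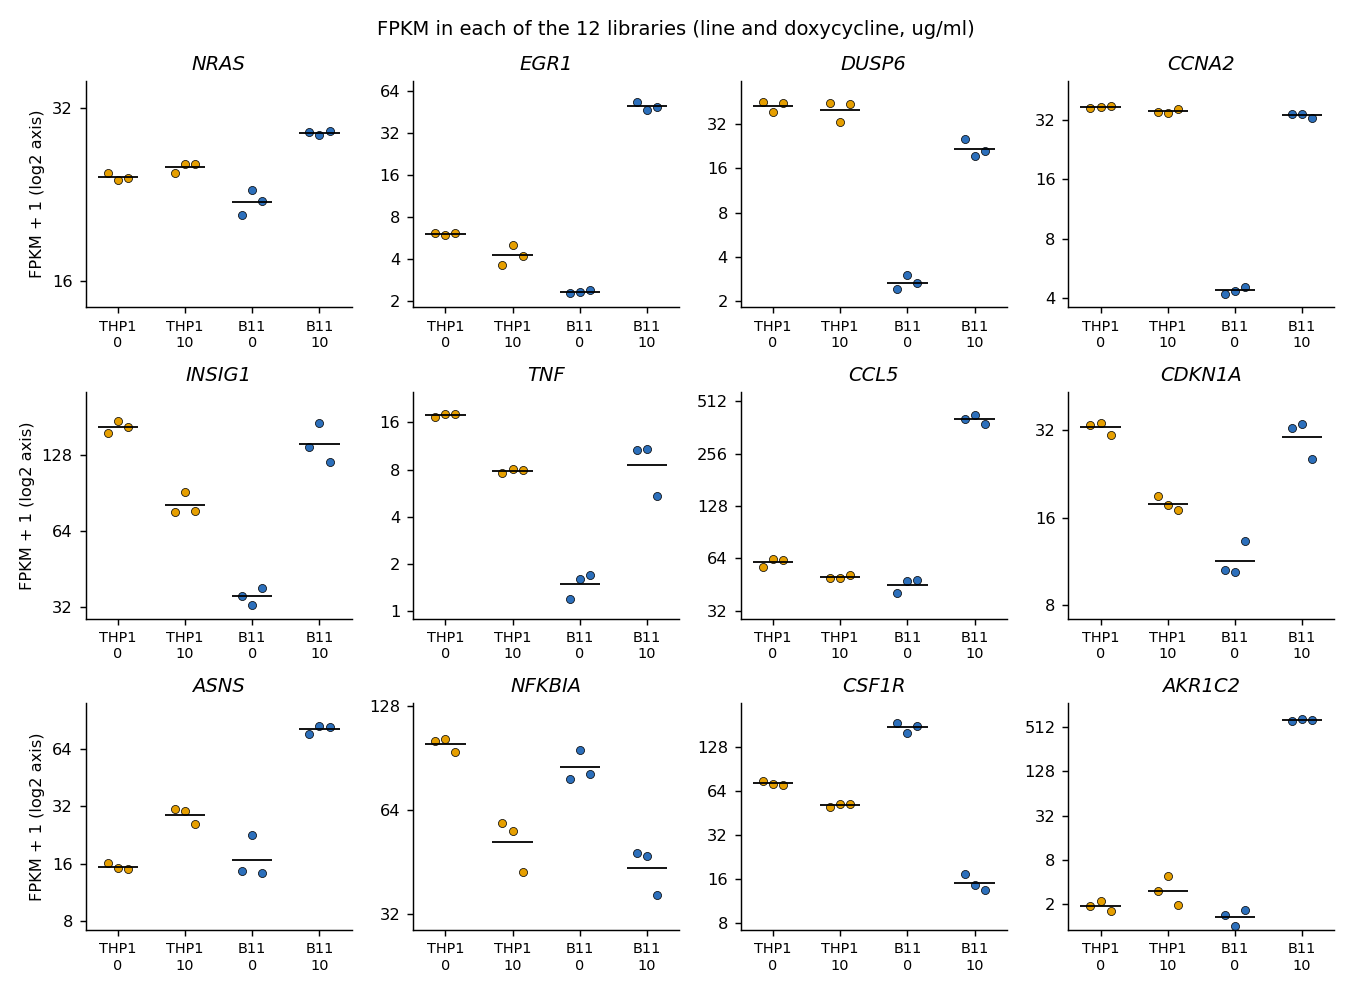
FPKM + 1 on a log2 axis in each of the 12 libraries for 12 genes, with points for libraries A, B and C of each line and dose and a bar at the mean of their log2 values. CCNA2 in treated B11 lies at 31.7 to 33.2 FPKM, just under the 33.7 to 36.4 FPKM of THP1. NFKBIA drops alike in both lines, and AKR1C2 is near 0 in all groups but treated B11.

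The cell cycle list was called in full: all 40 of its genes were kept, 40 were higher and 0 lower, against 16% and 13.8% of all genes. Their median corrected response was 2.54. The median was 2.39 in B11 and -0.10 in THP1, where 0 of the 40 passed. CCNA2, the cyclin of S and G2 phase, was at 35.4, 36.1 and 36.4 FPKM in untreated and 33.8, 33.7 and 35.2 in treated THP1, and at 3.23, 3.35 and 3.59 in untreated and 33.2, 33.0 and 31.7 in treated B11. Untreated B11 was the group set apart, with the lowest CCNA2 values. The corrected response of CCNA2 was 3.01 (SE 0.10, adjusted p = 5.21e-11). CCNB2, a mitotic cyclin, had 2.82 (SE 0.11), the spindle factor TPX2 2.67 (SE 0.09), RRM2, a ribonucleotide reductase subunit, 3.99 (SE 0.16) and MYBL2, a transcription factor of late G1 and G2, 3.86 (SE 0.21).

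Read between the lines rather than between doses, the same list was lower in B11 than in THP1 without doxycycline for 40 of 40 genes, against 23.6% of all genes (47.1% in either direction), with a median of -2.62. At 10 ug/ml the median gap was -0.18, with 6 genes higher (16.4% of all genes) and 14 lower (16% of all genes, and 32.4% in either direction). RRM2 was still lower by 0.52 (adjusted p = 0.00256) and CCNA2 differed by -0.07 (adjusted p = 0.50). A gap that is not called does not show equal levels. In bulk RNA fewer cycling cells and less RNA per cycling cell cannot be told apart.

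Inhibitors of the cycle did not fall as a group. Among 10 kept CDK inhibitor and RB family genes 4 were higher and 1 was lower (50% called, against 29.8% of all genes). Their median was 0.28 (-0.01 with only genes of a mean of at least 5 FPKM). CDKN1A, which encodes the CDK inhibitor p21, was at 32.4, 32.9 and 29.9 FPKM in untreated and 18.01, 16.6 and 15.96 in treated THP1, and at 9.58, 9.44 and 12.3 in untreated and 31.5, 32.6 and 24.4 in treated B11. Doxycycline thus went with lower values in the parent and higher values in the clone, and the corrected response was 2.29 (SE 0.16, adjusted p = 6.63e-08). RB1 and RBL1 were higher at 0.81 (SE 0.24) and 0.82 (SE 0.21), and RBL2, the pocket protein of resting cells, was lower at -0.68 (SE 0.13). Of 12 genes for histones with polyadenylated transcripts, 66.67% were called, against 29.8% of all genes. Higher were 4, among them the variants H2AFZ at 1.68 (SE 0.11) and H2AFX at 1.55 (SE 0.11). Another 4 were lower, among them HIST1H2BK at -2.26 (SE 0.33), which had 121, 122 and 94.2 FPKM in untreated B11 and 10.0, 15.6 and 9.37 in treated B11. The histone median, -0.31, became 0.38 with only genes of a mean of at least 5 FPKM, -0.19 without library B of untreated THP1 and -0.20 without library A of treated B11.

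Most growth and protein-folding genes were higher in the corrected response, and 0 of them were called in the parent. Of 30 MYC target and ribosome biogenesis genes, 20 were higher and 0 lower (66.67% called, against 29.8% of all genes). Their median was 0.64. Without doxycycline 24 of the 30 were lower (23.6% of all genes) and 1 higher (23.5% of all genes) in B11 than in THP1. The median gap was -0.99. At 10 ug/ml 16 were still lower (16% of all genes) and 5 higher (16.4% of all genes), with a median gap of -0.33. SRM, the spermidine synthase, rose from 54.1, 54.9 and 52.0 to 137, 147 and 143 FPKM in B11, and THP1 had 182, 180.4 and 177 without and 198, 190.1 and 177 with doxycycline. Treated B11 stayed below every THP1 library. The corrected responses were 1.32 (SE 0.09, adjusted p = 7.75e-08) for SRM, 1.87 (SE 0.13) for the nucleoside diphosphate kinase NME1, 0.99 (SE 0.11) for the nucleolar phosphoprotein NOLC1 and 0.81 (SE 0.07) for nucleolin, NCL. MYC itself, a member of the MAPK list was higher at 0.50 (SE 0.08), and the ribosome biogenesis factors NOP2, NOP58, POLR1B and POLR1C were between -0.16 and -0.07 and not called.

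Of 28 genes of the unfolded protein response and heat shock, 21 were higher and 0 lower (75% called, against 29.8% of all genes). The median was 1.00 (0.90 in B11 and -0.10 in THP1). Without doxycycline 21 of the 28 were lower (23.6% of all genes) and 2 higher (23.5% of all genes) in B11 than in THP1. The median gap was -0.97. At 10 ug/ml 7 were lower (16% of all genes) and 8 higher (16.4% of all genes), with a median gap of -0.03. HSPA5, the BiP chaperone of the endoplasmic reticulum, was at 70.8, 64.0 and 64.9 FPKM in untreated and 173, 170.0 and 176 in treated B11, against 208, 229.6 and 226 in untreated and 201, 209 and 185 in treated THP1. The corrected response of HSPA5 was 1.52 (SE 0.08, adjusted p = 3.85e-09). HSP90AB1, a cytosolic HSP90, had 1.51 (SE 0.08), HYOU1, a chaperone related to HSP70, 1.48 (SE 0.08) and the disulphide isomerase PDIA3 1.16 (SE 0.07). The inducible HSP70 genes HSPA1A and HSPA1B were among the 7 that were not called, at 0.10 and 0.20.

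Nuclear genes of the respiratory chain and genes encoded in mitochondria mostly moved in opposite directions. Of 41 nuclear oxidative phosphorylation genes 23 were higher and 1 lower (median 0.39), the 1 being the complex I subunit NDUFS3 at -0.40 (adjusted p = 0.0311), and of 30 genes of the mitochondrial ribosome and its translation 20 were higher and 0 lower (median 0.68). CYC1, cytochrome c1 of complex III, had 1.10 (SE 0.09), the complex I subunit NDUFS7 1.28 (SE 0.12), the ribosomal protein MRPL37 1.26 (SE 0.09) and the elongation factor TUFM 0.87 (SE 0.11). Among 15 listed genes of the mitochondrial genome 0 were higher and 14 lower (93.33% called). Their median was -0.89, from -0.72 in B11 and 0.15 in THP1. MT-CO1, a core subunit of complex IV, was at 3180.0, 3214 and 3252 FPKM in untreated and 3611, 3502 and 3602 in treated THP1, and at 7288, 5577 and 6268 in untreated and 2982, 2769 and 2075 in treated B11. Untreated B11 was thus above the parent and treated B11 below it, and the corrected response of MT-CO1 was -1.45 (SE 0.16, adjusted p = 6.48e-06). That of MT-ND6, the subunit encoded on the other strand, was -1.63 (SE 0.22). The share of all FPKM that came from mitochondrial genes ranged from 4.38% to 5.58% in untreated B11, 2.49% to 3.71% in treated B11 and 3.36% to 4.26% over the 6 THP1 libraries. Whether RNA quality or handling had a part in this share was not tested.

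Most cholesterol synthesis genes fell with the drug in the parent and rose in the clone. All 24 kept genes of 25 listed for cholesterol synthesis were higher in the corrected response (0 lower), against 16% of all genes. Their median was 1.86. In B11 20 rose and 0 fell (median 1.15), and in THP1 0 rose and 15 fell (median -0.73). INSIG1, the sterol sensor partner that retains SREBP, was at 155, 172 and 163 FPKM in untreated and 75.3, 90.2 and 75.6 in treated THP1, and at 34.4, 31.6 and 36.9 in untreated and 136, 169.5 and 118 in treated B11. The drop in the parent and the rise in the clone each separated the doses, and the corrected response of INSIG1 was 3.02 (SE 0.15, adjusted p = 2.61e-09).

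FDPS, farnesyl diphosphate synthase, fell in THP1 from 1004, 974 and 1022 to 541, 566 and 497 FPKM and rose in B11 from 241, 227 and 255 to 576, 639 and 462 FPKM. Treated clone and treated parent overlapped for FDPS, with a gap of 0.05 (adjusted p = 0.706), although the corrected response was 2.10 (SE 0.13, adjusted p = 1.73e-08). The thiolase ACAT2 had a corrected response of 2.75 (SE 0.17) and squalene epoxidase, SQLE, of 2.20 (SE 0.14). At 0 ug/ml 23 of the 24 genes were lower in B11 than in THP1, against 23.6% of all genes, with a median gap of -1.64. At 10 ug/ml 7 were higher (16.4% of all genes) and 3 lower (16% of all genes), with a median gap of 0.21.

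Of 15 kept genes of fatty acid synthesis and liver X receptor (LXR) targets, 9 were higher and 2 lower, with a median of 0.97. Of all genes 16% were higher and 13.8% lower, so the share of the list that was lower was near that of all genes. In B11 8 rose and 3 fell (median 0.83), and in THP1 0 rose and 3 fell (median -0.23). The 9 were synthesis and desaturation genes, and the 2 were NR1H3, which encodes LXR alpha, at -1.05, and the cholesterol exporter ABCA1 at -0.99. Only 1 of these 2 was called without library B of untreated B11, library A of treated B11 or library B of untreated THP1. FADS2, a fatty acid desaturase, had 249, 237 and 235 FPKM in untreated and 129, 145 and 106 in treated THP1, and 32.8, 33.0 and 29.5 in untreated and 177, 188 and 152 in treated B11. No 2 of its groups overlapped, and the corrected response was 3.33 (SE 0.15, adjusted p = 1.04e-09). FADS2 overlaps FADS1 and FEN1 in the annotation, and their reads may not be fully separated. The stearoyl-CoA desaturase SCD had 2.51 (SE 0.13), fatty acid synthase FASN 2.54 (SE 0.15) and ATP citrate lyase ACLY 1.41 (SE 0.13).

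**Figure D3:**
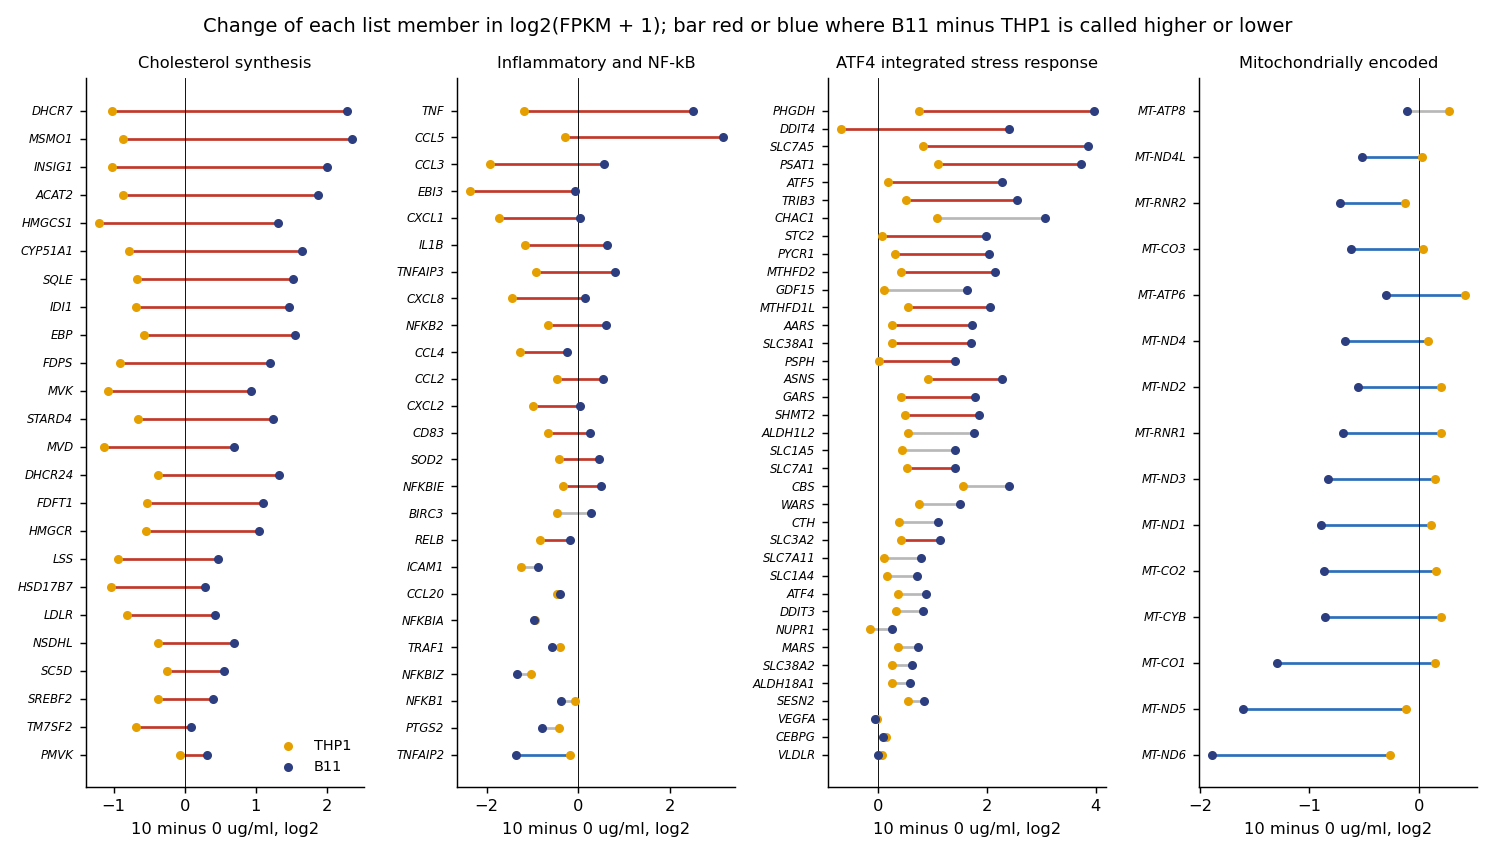
Change from 0 to 10 ug/ml in THP1 (orange) and B11 (dark blue) for each kept member of 4 lists, in log2(FPKM + 1), joined by a red or blue line where the corrected response was called higher or lower and grey where it was not. In the cholesterol panel the 2 lines move apart around 0, in the inflammatory panel most of the gap lies on the THP1 side, and in the ATF4 panel both lines lie to the right of 0 for most genes.

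Glycolysis and hypoxia genes behaved in a like way. Of 29 kept genes 26 were higher and 1, the regulator PFKFB3, was lower (93.1% called, against 29.8% of all genes). Their median was 1.22. The B11 median was 0.85, with 23 up and 1 down, and the THP1 median was -0.43, with 0 up and 8 down. P4HA1, a collagen prolyl hydroxylase that responds to low oxygen, was at 21.8, 24.0 and 23.8 FPKM in untreated and 12.6, 14.7 and 12.5 in treated THP1, and at 12.3, 11.3 and 10.9 in untreated and 49.2, 44.6 and 31.3 in treated B11. Treated B11 was highest in every library, and the corrected response of P4HA1 was 2.52 (SE 0.18, adjusted p = 8.95e-08). The glucose transporter SLC2A1 had 1.69 (SE 0.12), PGK1 1.14 (SE 0.10) and GAPDH, the dehydrogenase often used as a reference gene, 1.16 (SE 0.09, 0.87 in B11 and -0.28 in THP1).

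ALDOC, an aldolase isoform, had the largest value of the list, 4.02 (SE 0.57, adjusted p = 7.58e-05). Its THP1 values of 34.9, 35.7 and 35.2 FPKM fell to 8.16, 9.40 and 7.88, and its B11 values went from 18.3, 19.2 and 20.1 to 136, 149 and 29.2. Library C of treated B11 lay well under A and B for ALDOC but above all untreated B11 libraries.

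The inflammatory and NF-kB list was called mostly through the parent. Of 25 kept genes of 30, 16 were higher and 1 lower in the corrected response (68% called, against 29.8% of all genes). The median corrected response was 0.91, while the B11 median was 0.05 (6 up, 7 down) and the THP1 median -0.84 (0 up, 9 down). With only genes of a mean of at least 5 FPKM 7 were higher. TNF, the cytokine, was at 16.3, 17.1 and 17.04 FPKM in untreated and 6.55, 7.02 and 6.89 in treated THP1, and at 0.192, 0.612 and 0.711 in untreated and 9.61, 9.73 and 4.42 in treated B11. Doses were separated in both lines, in opposite directions, with a corrected response of 3.71 (SE 0.30, adjusted p = 2.56e-07). CCL5, the chemokine RANTES, changed on the B11 side: it was at 56.2, 62.0 and 61.6 FPKM in untreated and 48.3, 48.0 and 50.1 in treated THP1, and at 39.3, 46.3 and 46.8 in untreated and 405, 426 and 376 in treated B11. Its corrected response was 3.45 (SE 0.11, adjusted p = 5.21e-11).

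The chemokine CCL3 and the cytokine subunit EBI3 differed between the lines mainly through the parent. EBI3 fell in THP1 from 16.8, 14.7 and 14.7 to 2.69, 2.35 and 1.54 FPKM, and in B11 it had 1.73, 0.919 and 0.992 without and 1.49, 0.0746 and 2.26 with doxycycline. The B11 groups of EBI3 overlapped and the corrected response was nonetheless 2.29 (SE 0.58, adjusted p = 0.00753). For CCL3 it was 2.49 (SE 0.41), from 0.57 (adjusted p = 0.133) in B11 and -1.92 in THP1. NFKB2, the p100 subunit gene, had 1.27 (SE 0.19), and TNFAIP2 was the gene that was lower, at -1.19 (SE 0.09).

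Genes of the integrated stress response under ATF4 rose in the clone and, to a smaller degree, lay above 0 in the parent. In B11 33 of 37 kept genes of the list rose and 0 fell, with a median of 1.63, and in THP1 2 rose and 1 fell, with a median of 0.36. The corrected response was called higher in 18 of the 37 and lower in 0 (48.65% called, against 29.8% of all genes), with a median of 1.21. Without library B of untreated B11 it was called higher in 28, with a median of 1.41, and without library A the median was 0.83. TRIB3, a pseudokinase induced by stress, was at 41.8, 43.6 and 44.5 FPKM in untreated and 60.9, 68.8 and 56.5 in treated THP1, and at 12.03, 22.6 and 15.03 in untreated and 97.9, 95.5 and 104 in treated B11. Its corrected response was 2.05 (SE 0.21, adjusted p = 3.32e-06), and 2.28 (SE 0.12) without that library.

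PHGDH, the enzyme that starts serine synthesis, and CHAC1, a glutathione-degrading enzyme, are 2 of the 9 genes in which library B was at least 2 times as high as both other untreated B11 libraries. The others were the transcription factor ATF5, the serine and folate enzymes PSAT1 and ALDH1L2, the amino acid transporters SLC7A5 and SLC38A1, and the tRNA synthetase genes AARS and WARS. Without library B the corrected response of PSAT1 went from 2.61 (SE 0.64) to 3.46 (SE 0.10) and that of AARS from 1.46 (SE 0.44) to 2.04 (SE 0.10). PHGDH was at 10.99, 121 and 11.8 FPKM in untreated and 395, 419 and 426 in treated B11, with 127, 132 and 132 in untreated and 235, 234 and 199 in treated THP1. Library B of untreated B11 lay close to the untreated parent, far above its sister plates. The corrected response of PHGDH was 3.20 (SE 0.82, adjusted p = 0.00837) with it and 4.30 (SE 0.10, adjusted p = 9.59e-12) without it. CHAC1 had 0.327, 9.10 and 0.25 FPKM in untreated B11, and its corrected response went from 1.99 (SE 0.77, adjusted p = 0.0644) to 2.98 (SE 0.23, adjusted p = 4.53e-07) when library B was left out. What set this library apart was not tested.

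DDIT4, an inhibitor of mTORC1, differed from most of the list because it fell in the parent: it went from 26.01, 21.4 and 21.5 to 16.3, 13.8 and 12.01 FPKM in THP1 and from 11.05, 12.5 and 13.9 to 68.3, 90.3 and 56.2 in B11. Its corrected response, 3.09 (SE 0.21, adjusted p = 4.64e-08), was 3.09 (SE 0.23) without library B. The mitochondrial folate enzyme MTHFD2 had 1.71 (SE 0.20) and the proline synthesis enzyme PYCR1 1.73 (SE 0.24).

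NRF2 target genes were higher in 10 of 19 kept cases and lower in 1 (57.89% called, against 29.8% of all genes), with a median of 0.67. PRDX1, a peroxiredoxin, had 1.24 (SE 0.10), thioredoxin TXN 1.10 (SE 0.12) and the malic enzyme ME1 1.82 (SE 0.18), while GCLC, a subunit of the glutathione synthesis enzyme, was lower at -1.63; without library C of treated THP1 2 genes were lower. The aldo-keto reductases of the AKR1C cluster on chromosome 10 were among the named genes with the largest corrected responses. AKR1C2 was at 0.918, 1.21 and 0.627 FPKM in untreated and 1.98, 3.85 and 0.964 in treated THP1, at 0.409, 0 and 0.692 in untreated B11, and at 621, 644 and 626 in treated B11. All 9 other libraries were under 4 FPKM, and the corrected response of AKR1C2 was 8.20 (SE 0.39, adjusted p = 1.72e-09). AKR1C3 had 60.4, 56.7 and 57.0 FPKM in treated B11 and at most 1.54 in the other 9 libraries, with a corrected response of 5.20 (SE 0.56). AKR1C1 is listed at 0 in all 3 untreated B11 libraries and had 32.8, 28.1 and 78.7 FPKM in treated B11, so no fold is given for it and its fitted 5.49 (SE 0.43) depends on the pseudocount. The AKR1C genes are close copies of each other, and the split of reads among them is uncertain.

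**Figure D4:**
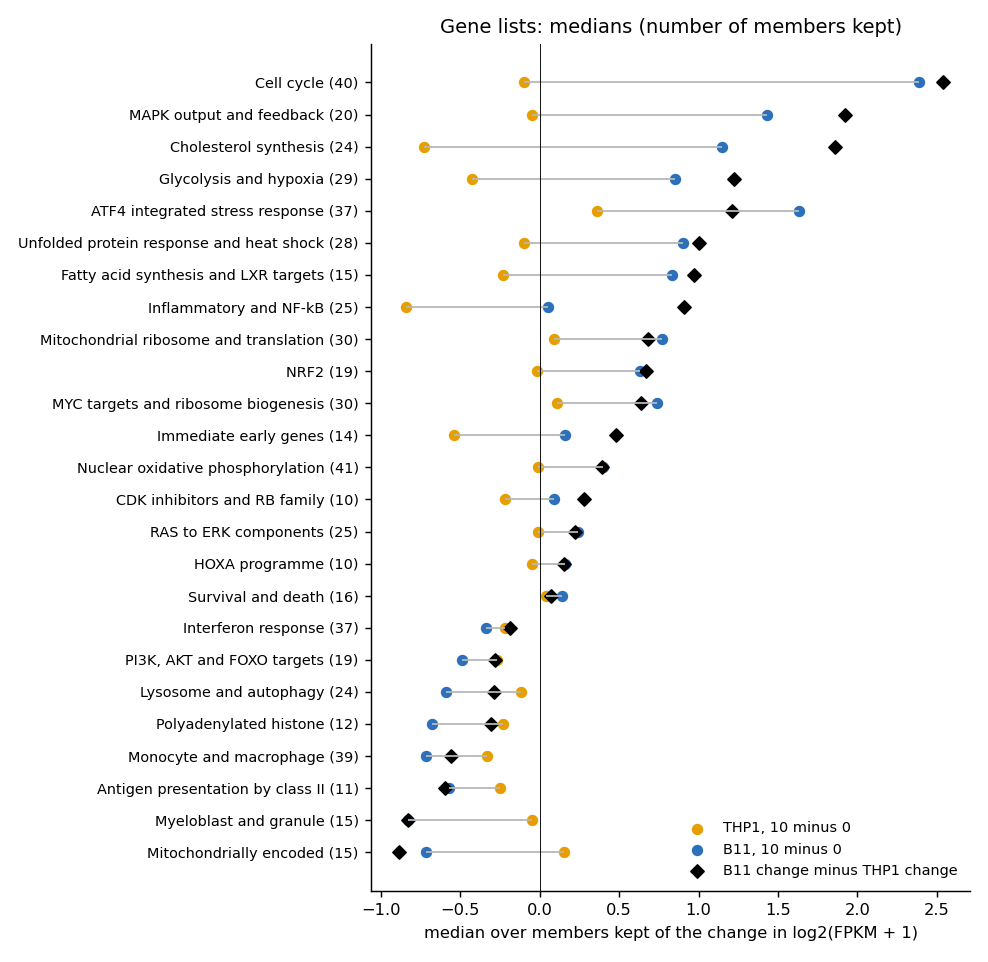
Median change over the kept members of 25 gene lists (number kept in parentheses) in THP1 (orange), in B11 (blue) and in the corrected response (black diamonds), in log2(FPKM + 1). Among the black diamonds, cell cycle, MAPK output and cholesterol synthesis lie farthest to the right and the mitochondrially encoded genes farthest to the left; the diamond lies clearly right of the blue point where the parent fell, as in the inflammatory list.

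Markers of mature monocytes were mostly lower. Of 43 listed monocyte and macrophage genes 39 were kept. In the corrected response 20 of these were lower (13.8% of all genes) and 7 higher (16% of all genes). The median was -0.56, from -0.72 in B11 and -0.33 in THP1. S100A8, a subunit of calprotectin, was at 372, 438 and 442 FPKM in untreated and 285, 311 and 262 in treated THP1, and at 118, 86.6 and 134 in untreated and 1.94, 3.30 and 3.08 in treated B11. Treated B11 was set far below the other groups, and the corrected response was -4.37 (SE 0.27, adjusted p = 1.73e-08). For S100A9, the partner subunit, it was -3.81 (SE 0.24), and for CD36, a scavenger receptor, -3.84 (SE 0.28). CD36 is overlapped by another gene, GNAT3, in the annotation.

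The M-CSF receptor CSF1R showed a different start: at 74.5, 71.0 and 69.7 FPKM in untreated and 48.7, 51.6 and 51.2 in treated THP1, it was at 186, 159 and 178 in untreated and 16.4, 13.6 and 12.4 in treated B11. Untreated B11 was the highest and treated B11 the lowest group, and the corrected response was -3.04 (SE 0.14, adjusted p = 1.72e-09). Lysozyme, LYZ, had the same order of groups and -3.07 (SE 0.16). TYROBP, an adaptor of myeloid receptors, had -1.85 (SE 0.10), and MS4A6A, a membrane protein of monocytes, -1.28 (SE 0.06). CFP, properdin of the complement system, had -3.51 (SE 0.19), with single-line changes of -4.46 and -0.95.

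The 7 monocyte genes that were higher (4 with only genes of a mean of at least 5 FPKM) went against the list. As a share of the list they were near the 16% of all genes that were higher. ITGAM, the integrin CD11b, was at 21.4, 19.6 and 17.2 FPKM in untreated and 12.2, 15.6 and 10.3 in treated THP1, and at 3.26, 2.17 and 4.68 in untreated and 9.65, 14.3 and 9.93 in treated B11. Its treated groups overlapped, and the corrected response of ITGAM was 2.10 (SE 0.28, adjusted p = 5.33e-05). Among the others, CD14, IRF8, the Fc receptor chain FCER1G and the Fc receptors FCGR1A and FCGR2B had corrected responses between 0.68 and 1.55.

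Granule and progenitor genes were lower as well, in 9 of 15 kept genes, with 1 higher (66.67% called, against 29.8% of all genes). Their median was -0.83. ELANE, neutrophil elastase, was at 1860.0, 1973 and 1924 FPKM in untreated and 1834, 1731 and 1759 in treated THP1, and at 6863, 5983 and 6623 in untreated and 2962, 2947 and 2938 in treated B11. All B11 libraries of ELANE were above those of THP1 at either dose, and the corrected response was -1.02 (SE 0.08, adjusted p = 2.2e-07). The membrane protein MS4A3 had -2.78 (SE 0.22), the granule protein AZU1 -1.26 (SE 0.07) and the eosinophil-derived neurotoxin gene RNASE2 -1.09 (SE 0.09). CST7, which encodes cystatin F, was the gene that was higher.

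Of 11 kept genes of antigen presentation by class II molecules 3 were lower and 1 higher, with a median of -0.60. These are 36.36% of the list, against 29.8% of all genes. Leaving out 1 library moved that median to -0.36 (library A of untreated B11), -0.38 (library C of untreated THP1) and -0.25 (library B of treated THP1). HLA-DRA, the alpha chain of HLA-DR, was at 15.2, 15.3 and 16.6 FPKM in untreated and 8.29, 11.9 and 9.96 in treated THP1, and at 19.6, 10.8 and 14.2 in untreated and 1.23, 0.816 and 1.15 in treated B11, a corrected response of -2.30 (SE 0.28, adjusted p = 1.79e-05). HLA-DMA had -1.18 (SE 0.31), and HLA-DPA1, at -1.68 (SE 0.54, adjusted p = 0.0303), lost its call in 9 of 22 alternative analyses. The protease gene CTSH was higher at 0.67 (SE 0.17). Of 37 kept interferon response genes 3 were higher (0 with only genes of a mean of at least 5 FPKM) and 7 lower, with a median of -0.19. The share called, 27.03%, was near the 29.8% of all genes. STAT2, a transducer of interferon signals, was lower at -1.82 (SE 0.12), as was RSAD2, which encodes viperin, at -1.93 (SE 0.28), and USP18, a deconjugating protease, was higher at 1.15 (SE 0.26).

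Lysosome and autophagy genes were lower in 10 of 24 and higher in 1, the protease gene CTSL at 0.39, with a median of -0.29. In either direction 45.83% were called, against 29.8% of all genes. Without library B of treated THP1 2 were higher. LAMP2, a lysosomal membrane protein, was at 115, 124 and 123 FPKM in untreated and 114, 119.7 and 122 in treated THP1, and at 213, 206 and 218 in untreated and 104, 102 and 109 in treated B11. Untreated B11 was above the other 3 groups, and the corrected response of LAMP2 was -0.98 (SE 0.08, adjusted p = 1.66e-07). The glucosidase GAA had -1.01 (SE 0.10) and the cathepsin CTSZ -0.77 (SE 0.09).

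Of 19 kept PI3K, AKT and FOXO targets 4 were lower and 2 higher, with a median of -0.28. The share called, 31.58%, was near the 29.8% of all genes. TXNIP, which limits glucose uptake, was at 298, 350.4 and 354 FPKM in untreated and 255, 261 and 242 in treated THP1, and at 641, 822 and 677 in untreated and 118, 111 and 103 in treated B11. Untreated B11 was highest and treated B11 lowest, as for LYZ, and the corrected response of TXNIP was -2.27 (SE 0.13, adjusted p = 8.83e-09). The arrestin-like ARRDC4 had -1.55 (SE 0.18) and the sestrin SESN3 -1.25 (SE 0.16). KLF2, a FOXO target that is also listed under MAPK output, moved the other way, from 11.4, 12.1 and 12.8 to 4.27, 5.04 and 3.12 FPKM in THP1 and from 17.6, 21.1 and 21.2 to 42.0, 48.5 and 34.2 in B11, a corrected response of 2.38 (SE 0.23, adjusted p = 2.22e-06).

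Survival and death genes were higher in 5 and lower in 2 of 16 kept (43.75% called, against 29.8% of all genes). Their median was 0.07 (0.20 with only genes of a mean of at least 5 FPKM). BMF, a pro-apoptotic BH3-only protein, was at 17.9, 22.2 and 20.4 FPKM in untreated and 2.71, 2.46 and 2.58 in treated B11, against 5.12 to 7.97 in the 6 THP1 libraries, and had -2.31 (SE 0.25, adjusted p = 6.75e-06). PMAIP1, which encodes the BH3-only protein NOXA, was higher at 1.40 (SE 0.16) and BCL2 at 0.60 (SE 0.11), and the p53 target TP53INP1 was lower. Of 10 kept genes of the HOXA programme linked to MLL fusions, 1 was higher, MEF2C at 0.64 (SE 0.12; 2 without library A of treated B11), and 1 lower, the receptor kinase FLT3 at -1.23 (SE 0.13). The share called in that list was 20%, below that of all genes. HOXA9 and HOXA10 were at 0.25 and 0.19 and were not called.

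**Figure D5:**
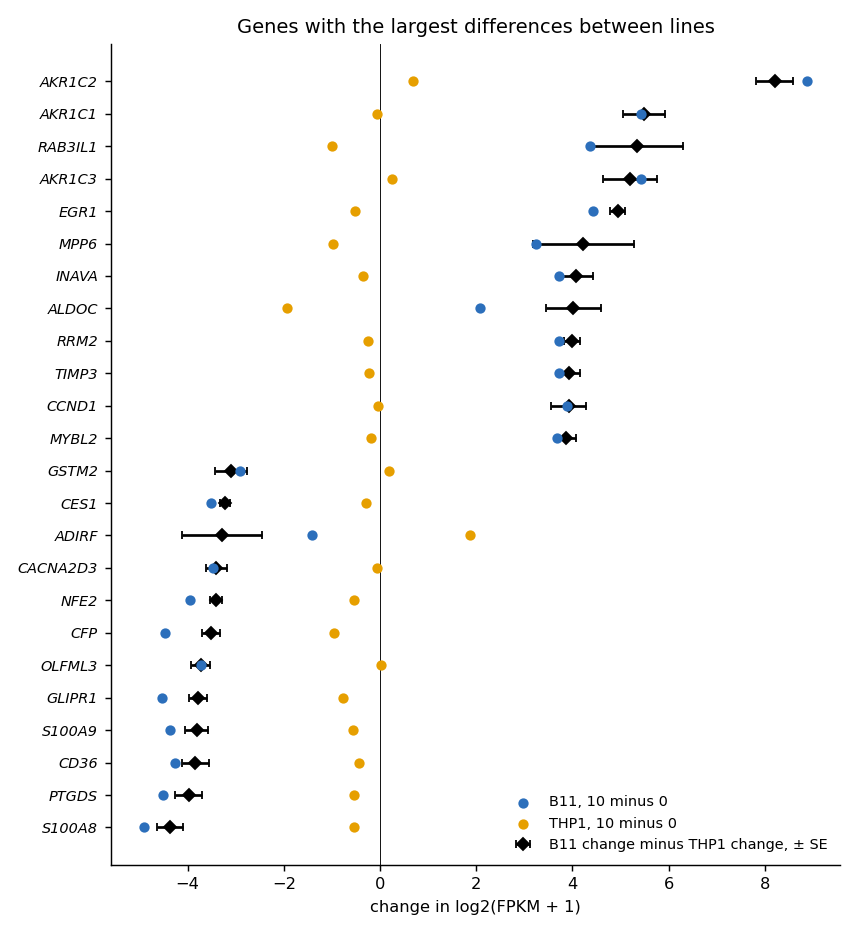
The 12 genes with the largest positive and the 12 with the largest negative corrected response among those called and at a mean of at least 5 FPKM in some group; black diamonds with bars of 1 SE are the corrected response, blue and orange points the changes in B11 and THP1, in log2(FPKM + 1). Black and blue points lie less than 1 apart in all genes but ALDOC and ADIRF.

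Among the 24 genes with the largest corrected responses several belong to none of the groups above. INAVA, an activator of innate immune signalling, was at 24.8, 24.2 and 29.2 FPKM in untreated and 25.9, 11.4 and 27.1 in treated THP1, and at 2.60, 3.39 and 2.13 in untreated and 53.4, 41.7 and 48.5 in treated B11, with 4.08 (SE 0.34, adjusted p = 3.29e-07). TIMP3, a metalloproteinase inhibitor that lies within the gene SYN3, rose in B11 from 0.641, 1.69 and 1.499 to 29.5, 33.4 and 22.7 FPKM, near the THP1 range of 32.2 to 43.8, with 3.93 (SE 0.23). Replicates of 2 genes spread widely: RAB3IL1 had 66.4, 17.8 and 10.8 FPKM in untreated THP1 (5.35, SE 0.94), and MPP6 had 3.85, 18.2 and 30.9 FPKM in treated B11 (4.22, SE 1.05).

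On the lower side, PTGDS, a prostaglandin D synthase, fell in B11 from 96.4, 74.4 and 86.9 to 2.77, 3.16 and 2.38 FPKM and had 5.97 to 13.1 FPKM in THP1, with -3.98 (SE 0.28, adjusted p = 7.42e-08). The transcription factor NFE2 went from 85.6, 75.3 and 80.5 to 4.44, 4.58 and 3.71 FPKM in B11 and from 41.2, 41.2 and 42.4 to 28.6, 29.9 and 26.3 in THP1. Both lines fell without overlap, B11 by far more, and the corrected response of NFE2 was -3.41 (SE 0.12). The carboxylesterase CES1 had -3.22 (SE 0.11), GLIPR1 -3.78 (SE 0.19), OLFML3 -3.73 (SE 0.20), the calcium channel subunit CACNA2D3 -3.40 (SE 0.21) and the glutathione transferase GSTM2 -3.10 (SE 0.34). GSTM2 has close copies, and GLIPR1 overlaps KRR1. ADIRF, at -3.28 (SE 0.83, adjusted p = 0.00773), was not called with a pseudocount of 0.1 (adjusted p = 0.0642).

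Some genes changed with the dose in both lines, and the subtraction removed most or all of their response. NFKBIA, the inhibitor of NF-kB, was at 100.5, 102 and 92.9 FPKM in untreated and 57.6, 54.7 and 41.4 in treated THP1, and at 77.8, 94.5 and 80.3 in untreated and 46.9, 45.9 and 35.2 in treated B11. It fell by 0.94 in THP1 and by 0.97 in B11, and the corrected response was -0.03 (SE 0.19, adjusted p = 0.936). BTG2, an antiproliferative gene, fell by 1.01 and 0.96 and was left at 0.06 (SE 0.13, adjusted p = 0.788). CBS, cystathionine beta-synthase, rose from 2.20, 1.44 and 2.36 to 9.47, 7.13 and 6.99 FPKM in THP1 and from 0.416, 1.61 and 0.117 to 8.92, 7.86 and 6.01 in B11. Treated lines overlapped for CBS, and the corrected response of 0.84 (SE 0.45, adjusted p = 0.183) became 1.19 (adjusted p = 0.0404) without library B of untreated B11.

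Others kept a corrected response on top of a shared change. ASNS, asparagine synthetase, went from 15.1, 14.1 and 14.02 to 29.9, 29.4 and 24.9 FPKM in THP1 and from 13.6, 21.8 and 13.2 to 76.1, 83.8 and 82.7 in B11, with 1.37 (SE 0.29, adjusted p = 0.00217). NKD2, an antagonist of WNT signalling, had 1.29 (SE 0.14), and the mTOR complex subunit MLST8 0.89 (SE 0.11). LSP1, a leukocyte F-actin binding protein, fell from 116, 106 and 113 to 37.4, 44.6 and 39.0 FPKM in THP1 and from 23.1, 31.5 and 29.2 to 1.599, 2.51 and 0.398 in B11, with -2.17 (SE 0.34, adjusted p = 0.000196). The drug-treated parent still held more LSP1 than untreated B11.

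The 3 genes that rose in THP1 and fell in B11 were RPARP-AS1, DICER1-AS1 and CTSG. RPARP-AS1, an antisense RNA, went from 1.41, 2.56 and 1.77 to 4.63, 4.20 and 4.13 FPKM in THP1 and from 16.2, 23.2 and 13.7 to 7.53, 7.01 and 6.005 in B11, with a corrected response of -2.11 (SE 0.28, adjusted p = 3.77e-05). DICER1-AS1 had -1.62 (SE 0.25), and both antisense RNAs overlap genes on the other strand whose reads may be counted with theirs. CTSG, cathepsin G, is among the most abundant transcripts, with 3519, 3937 and 3914 FPKM in untreated and 4839, 5268 and 4442 in treated THP1, and 4630.0, 3934 and 4442 in untreated and 3369, 3670.0 and 3479 in treated B11. Its groups in each line did not overlap, and the corrected response was small, -0.66 (SE 0.10, adjusted p = 0.000136).

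The direction of the corrected response differed by gene type. Of 12733 kept protein-coding genes 20.5% were higher and 13.9% lower, with a median of 0.05, whereas of 760 long intergenic RNAs 4.21% were higher and 19.9% lower (median -0.41), and of 1286 antisense RNAs 3.89% were higher and 16.6% lower (median -0.39). The medians of these RNAs were -0.39 and -0.40 in B11 and 0.01 and 0.00 in THP1. Their median gap of B11 to THP1 was 0.34 and 0.33 without doxycycline and -0.03 and -0.07 at 10 ug/ml. The difference between the lines thus lay mostly in untreated B11. Calls also rose with level, from 3.44% higher and 5.01% lower where the highest group mean was under 2 FPKM to 34.1% and 21.4% at 100 FPKM or more. Among genes with their highest group mean at 5 to 20 FPKM, 15.1% of protein-coding genes were higher and 11.8% lower, against 9.04% and 31.9% of 166 long intergenic RNAs and 5.41% and 25.3% of 296 antisense RNAs. The difference between gene types was not tested, and genes are not independent replicates.

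Markers of other cell types were mostly near 0. Below 1 FPKM in all 12 libraries were 5 of 8 T and NK cell markers, 4 of 8 B cell markers, 7 of 8 erythroid markers, 5 of 8 megakaryocyte markers and 6 of 8 fibroblast and epithelial markers. The summed level of the T and NK list was 79.4 to 84.3 FPKM in untreated THP1, 66.2 to 67.6 in treated THP1, 24.3 to 31.0 in untreated B11 and 42.8 to 47.5 in treated B11, nearly all of it NKG7, a granule membrane protein. NKG7 had a corrected response of 0.85 (SE 0.15, adjusted p = 0.000516), and TRAC, listed at 0 in all untreated B11 libraries, reached at most 2.75 FPKM. The B cell receptor subunit CD79B had 1.12 (SE 0.36), a call lost in 5 of the fits that left out 1 library, and the platelet glycoprotein GP9 0.94 (SE 0.28). The erythropoietin receptor EPOR, at 0.64 (SE 0.30), and KRT8 and COL1A1, at 0.50 (SE 0.76) and -0.82 (SE 0.55), were not called.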

How the data were processed

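Total RNA of 18 plates was sequenced, and 12 of them, THP1 and B11 at 0 and 10 ug/ml doxycycline, make up the contrast described here. The authors deposited 1 FPKM value per gene and library for 60658 gene IDs; per the submitters' processing notes these were made with HISAT2, Cuffnorm and GRCh38. No version, annotation release, strand setting or scaling option is given in the sources used here. Overlapping genes on opposite strands may share reads. GENCODE release 29 named 57047 IDs and left 3611 without a name. Depth was estimated from the steps between low FPKM values, at 10.7 to 15.4 M fragments for the 12 libraries. The estimate did not enter any fit.

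Genes at 1 FPKM or more in at least 3 libraries were kept, and values were taken as log2(FPKM + 1), which understates changes of low genes. The means of all 6 groups were fitted with limma (version 3.58.1, under R 4.3.3), using the trend option of its moderation, and the 2 doses of each line and the 2 lines were combined as contrasts. P-values are two-sided, adjusted by Benjamini-Hochberg within a contrast, and called under 0.05; every adjusted p given comes from this limma fit. The fit was tested on simulated data before use. In that test, a single run, 6.61% of calls were false, somewhat above the threshold. The run drew normal noise around a mean per gene that all groups shared, so its false share may differ from that in the data. Of 50 genes changed at each size, 12% were recovered at 0.5, 40% at 1, 80% at 2 and 94% at 4 on the log2 scale. Far fewer genes were changed there than the 5230 called in the data, so these shares may differ for the data.

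The genes, lists and tests were chosen with earlier results of these data known. Named genes are NRAS, the 12 largest called responses in each direction with a group mean of at least 5 FPKM, up to 4 called members of each list with the smallest p (the 2 most abundant where none was called), and up to 4 genes for each combination of directions in the 2 lines. Lists are described by counts and medians, with no test of the list. Some list members that count in these totals are not reported here by name. The letters A, B and C do not pair libraries: deviations of same-letter libraries from their group means correlated at -0.0705 to 0.0923. The labels give no batch. Alternatives covered the pseudocount, filter, scaling, moderation, libraries in the fit, a replicate block and each library left out. Promoters came from RefSeq on GRCh38.p14. Python 3.11.15 and matplotlib 3.10.9 were used for tables and plots.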

Additional observations from a re-analysis of the deposited data

Results flagged for a closer look

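In 21 named genes the lines moved in opposite directions with doxycycline, each line's change being called. The corrected response (limma, Benjamini-Hochberg) was called as well. Given 2 called changes of opposite sign in the same fit, that last call was largely fixed in advance and adds no support. Some of the 21 were named by the rule for opposite directions. The THP1 calls are the least stable, 179 genes and 54 with only the 12 libraries. For EGR1 the THP1 adjusted p (limma) was 0.0494. Whether both calls of each gene held in the alternatives was not tested. In 18 of the 21, treated B11 was higher and treated THP1 lower than the untreated plates. These were EGR1 (4.94), ALDOC (4.02), TNF (3.71), KLF2 (2.38), CDKN1A (2.29), JUND (1.33), NFKB2 (1.27) and JUNB (0.87), the lipid synthesis genes FADS2 (3.33), INSIG1 (3.02), ACAT2 (2.75), SCD (2.51), SQLE (2.20) and FDPS (2.10), and DDIT4 (3.09), P4HA1 (2.52), GAPDH (1.16) and PGK1 (1.14). RPARP-AS1 (-2.11), DICER1-AS1 (-1.62) and CTSG (-0.66) went the other way. All values are differences of differences in log2(FPKM + 1), 3 libraries per group.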

How the results depend on the processing

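The count of genes called in the corrected response, 5230, ranged from 4229 (mean of at least 5 FPKM) to 5255 (pseudocount of 5), was 4720 with only the 12 libraries, 5147 on a TPM scale (3064 higher and 2083 lower) and 4620 to 5025 when 1 library was left out. With the letter as a replicate block it was 5105, with 2753 higher and 2352 lower, the B11 count was 7422 and the THP1 count 136. The B11 count, 7520, was 6557 to 7547 without 1 library. The THP1 count, 179, was the least stable: 54 with only the 12 libraries and 69 to 217 without 1 library (109, 69 and 69 without library A, B or C of untreated THP1, and 94, 119 and 102 without A, B or C of treated THP1). NRAS kept its call in all 22 alternatives, at 0.30 to 0.40. Of the other 135 named genes, 127 kept their side of the threshold and their direction in all 22. Sign changes occurred in 3 uncalled genes: BTG2 ranged from -0.02 to 0.12 and KRT8, at 0.50 with an SE of 0.76, from -0.15 to 0.98 without 1 library. NFKBIA ranged from -0.17 to 0.10 without 1 library (0.06 without library B of untreated B11 or library A of treated THP1, 0.01 without C of untreated THP1, 0.03 without B of treated THP1), and was 0.04 with TPM. The cause of these shifts was not tested. A pseudocount of 0.1 raised and one of 5 lowered the list medians, for MAPK output to 3.22 and 0.81. With a median SE of 0.28, small corrected responses were not detectable here, and an uncalled gene is not shown to be unchanged.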
